A study of Mus musculus with 7 samples.

Results

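The genes described here encode the core autophagy machinery of the mouse, 35 genes of the 39179 Ensembl gene IDs in the deposited table. They were chosen by name, as the rows whose ID maps to a listed symbol, and all 35 were found. By role they fall into 16 genes that start an autophagosome, 16 that conjugate the ATG8 proteins to its membrane or are those proteins, and 3 others, the cargo receptors Sqstm1 and Nbr1 and the transcription factor Tfeb. The libraries are bulk RNA-seq of LSK cells, the lineage-negative, Sca-1-positive, Kit-positive fraction of bone marrow, where blood stem cells and multipotent progenitors reside. They were sorted from C57/BL6 mice aged 7 weeks to ask what loss of Jmjd1c does to normal blood formation. The 3 Jmjd1c libraries are of the genotype Jmjd1c f/f Vav1Cre: both copies of the gene are flanked by loxP sites, and Cre is driven in blood cells by the Vav1 promoter. The 4 control libraries come from mice that carry Vav1Cre alone, so all 7 carry the transgene, and the labels name no floxed allele for the controls.

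Macroautophagy wraps part of the cytoplasm in a double membrane and delivers it to the lysosome. A kinase complex around ULK1 and a phosphatidylinositol 3-kinase complex around Beclin 1 mark the site, ATG9 vesicles and the ATG2 lipid transfer proteins feed the growing membrane, and a cascade like that of ubiquitin then links ATG8 proteins (LC3 and GABARAP) to its lipids, where cargo receptors bind them. In mice, loss of Atg7 or of Rb1cc1 in blood cells is known to impair haematopoietic stem cells. JMJD1C belongs to the KDM3 family of JmjC-domain histone demethylases.

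Values are normalized read counts, that is, reads per gene after division by the library's size factor, and the recovered reads in genes ran from 4303712 in control 2 to 6436519 in control 1. Jmjd1c itself had 294, 244 and 254 normalized read counts in the Jmjd1c libraries, against 458, 466, 516 and 512 in the control libraries. It fell by 0.89 ± 0.09 on the log2 scale (SE; adjusted p = 0.00407, limma), and by the exact permutation test p was 0.0286, the lowest possible with 35 splits of 7 libraries. The count covers the whole gene, so it does not measure how much of the floxed part was deleted, which was not tested. The summed level of 8 LSK markers, all above 0 in every library, was 22345 to 25884 in the Jmjd1c libraries and 22372 to 25363 in the control libraries. None of the 8 was called by limma, and they differed in sign: Kit was at 5880 to 7268 in the Jmjd1c libraries and 4778 to 6700 in the control libraries (log2 fold change 0.15; adjusted p = 0.468), and Flt3, a receptor of multipotent progenitors, at 4039 to 5295 in the Jmjd1c libraries and 5172 to 5956 in the control libraries (-0.25; adjusted p = 0.157). Markers of other bone marrow cells were also present. Of these, Prss34 of basophils (log2 fold change -1.12; adjusted p = 0.0410, limma) and Igha of plasma cells (-2.29; adjusted p = 0.0376, limma) were called. The summed B and plasma cell markers were at 11725, 9627 and 29489 in Jmjd1c 1, 2 and 3, and at 18572 to 28562 in the control libraries. The erythroid markers were at 276 to 322 in the Jmjd1c libraries and 196 to 509 in the control libraries. The summed basophil and mast cell markers were at 2204 to 4628 in the Jmjd1c libraries and at 5686 to 8811 in the control libraries, and the neutrophil markers at 6861 to 9894 in the Jmjd1c libraries and 9889 to 13312 in the control libraries; their part in the differences between the groups was not tested. The 12 macrophage markers summed to 2925 to 4837 in the Jmjd1c libraries, 3140 to 4519 in controls 1 to 3 and 11789 in control 4, which stood apart; of these markers only Marco was at 0 in some libraries. Jmjd1c 1 correlated with the control libraries at 0.978 to 0.983 over the log values of the tested genes, and Jmjd1c 3 at 0.954 to 0.965.

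None of the autophagy genes passed the test, and most differences were small. Of the 34 that were expressed highly enough to be tested, 0 were called by limma at an adjusted p of 0.05, where 1.8% of all 12813 tested genes were called. edgeR and DESeq2 on the recovered reads also called 0 of them, where edgeR called 1.82% and DESeq2 5.21% of the genes they tested. The remaining gene, Map1lc3a, which encodes LC3A, lay below the filter on low values, at 8.27, 4.12 and 4.70 normalized read counts in the Jmjd1c libraries and 2.40, 8.45, 2.33 and 8.74 in the control libraries, from 2 to 10 reads a library. The median log2 fold change of the 34 genes was 0.01, against -0.01 over all tested genes, with 19 above 0 and 15 below. The 95% interval of the fold change lay within 1.5-fold in both directions for 28 of the 34 genes (82.4%), against 62.3% of all tested genes. The 6 whose interval reached beyond 1.5-fold were Uvrag, Wipi1, Wipi2, Atg2a, Atg9a and Tfeb, all on the side of higher values in the Jmjd1c libraries. The median level was 180 normalized read counts in the 34 genes and 159 over all tested genes. The median half-width of the log2 interval was 0.25 in the 34 genes and 0.29 over all tested genes. The part of read level in the share within 1.5-fold was not tested. Whether the libraries stem from separate animals is not in the labels, so p-values and intervals cover the spread among these 7 libraries alone, and that spread can be technical.

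**Figure D1:**
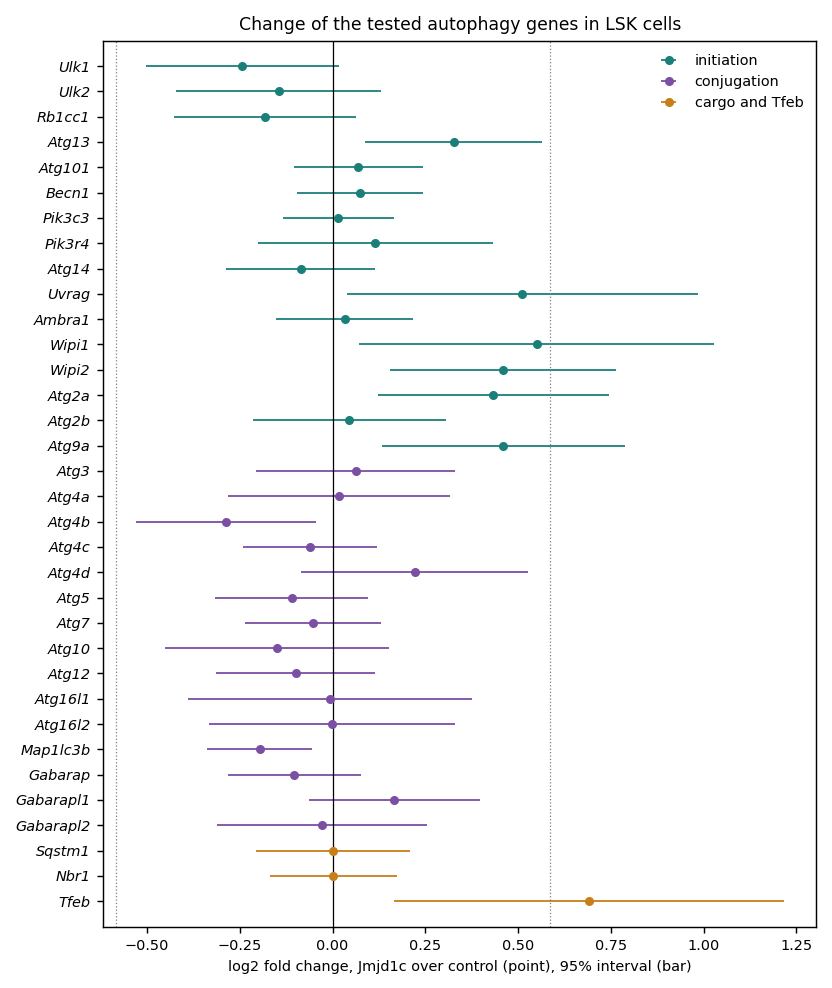
Log2 fold change, Jmjd1c over control, of the 34 tested autophagy genes by role (points), with 95% limma intervals (bars); dotted lines stand at 1.5-fold. The 15 conjugation genes all lie within the dotted lines, and the intervals that cross the right one belong to Uvrag, Wipi1, Wipi2, Atg2a, Atg9a and Tfeb.

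Before adjustment, 9 of the 34 genes (26.5%) had p under 0.05, against 19.7% of all tested genes; 7 were higher in the Jmjd1c libraries, where 11.9% of all genes were, and 2 lower, where 7.84% were. In 5 genes (14.7%) the groups did not overlap, against 16.8% of all tested genes. Atg13, Wipi2 and Atg9a were higher in every Jmjd1c library than in any control library (9.74% of all genes were), and Ulk1 and Map1lc3b were lower in every one (7.1% of all genes). The share of genes with groups that did not overlap was thus near that of all genes. Without Jmjd1c 1 the groups did not overlap in 12 of the 34 genes, where 32.0% of all genes did not, and without control 4 in 9, where 22.4% of all genes did not. Bulk libraries cannot tell fewer cells of a type from less RNA per cell, and this holds for every value given here.

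The ULK complex, which receives the starvation signal from mTORC1 and AMPK, was split in direction among its subunits. Ulk1, the kinase that starts autophagy, had 121, 113 and 98.6 normalized read counts in the Jmjd1c libraries, against 141, 122, 132 and 130 in the control libraries. Every Jmjd1c library was below every control library, by a narrow margin between Jmjd1c 1 and control 2. The log2 fold change of Ulk1 was -0.24 ± 0.12 (95% interval -0.50 to 0.02; adjusted p = 0.287, limma), and it was -0.42 once corrected for transcript GC content and length. Atg13, the subunit that joins the kinase to the rest of the complex, had 322, 310 and 383 normalized read counts in the Jmjd1c libraries, against 285, 297, 232 and 264 in the control libraries. The groups did not overlap in Atg13 either, in the opposite direction. It averaged 338 ± 39.0 in the Jmjd1c libraries (SD, n = 3) and 269 ± 28.4 in the control libraries (SD, n = 4), a 1.25-fold difference with a 95% interval of 1.06 to 1.48 (adjusted p = 0.138, limma). Atg101, the partner of ATG13 and the subunit with the most reads per kilobase of exon in the initiation group, had 410, 419 and 411 normalized read counts in the Jmjd1c libraries, against 369, 438, 385 and 388 in the control libraries. Its level per kilobase was 259 ± 3.15 in the Jmjd1c libraries and 247 ± 18.8 in the control libraries, and the groups overlapped. Ulk2, the second kinase of the family, had a log2 fold change of -0.15 (adjusted p = 0.555, limma), and Rb1cc1, the scaffold FIP200, one of -0.18 (adjusted p = 0.394). Rb1cc1 has a processed pseudogene, Gm13961, that matches 1324 of its bases at 95.6% identity and was at 0 in the table.

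The phosphatidylinositol 3-kinase complexes make the lipid PI3P on the new membrane, and the values of every subunit overlapped between the groups. Pik3c3, the catalytic subunit VPS34, lay at 552 to 587 normalized read counts in the Jmjd1c libraries and at 533 to 590 in the control libraries, a log2 fold change of 0.02 with a 95% interval of -0.13 to 0.17. Becn1, which encodes Beclin 1, was at 421 to 471 in the Jmjd1c libraries and at 396 to 444 in the control libraries (0.07; adjusted p = 0.63, limma). Over 43.9% of its exon bases Becn1 overlaps Cntd1 on the other strand. The strand setting of the counting is not given in the sources used here, so how reads of the shared bases were counted is not known. Atg14, the subunit that directs the complex to autophagosomes, had a log2 fold change of -0.09 (adjusted p = 0.64, limma), Pik3r4, the regulatory subunit VPS15, one of 0.12 (adjusted p = 0.694), and Ambra1, a regulator of Beclin 1, one of 0.03 (adjusted p = 0.862). Uvrag, which replaces ATG14 in the endosomal form of the complex, differed more. It averaged 68.1 ± 22.4 normalized read counts in the Jmjd1c libraries (SD, n = 3) and 46.1 ± 4.68 in the control libraries (SD, n = 4), a log2 fold change of 0.51 ± 0.22 (adjusted p = 0.221, limma). Its 3 Jmjd1c values were spread from 48.8 to 92.8 and overlapped the control values, which reached 51.6. A transcript on the other strand, Gm45187, covers 17.6% of the exon bases of Uvrag, and repeats within them match other genes at over 95% identity, so its counts are uncertain.

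The genes for WIPI, ATG2 and ATG9 proteins, which act between PI3P and membrane growth, had the highest median log2 fold change of the roles with more than 1 gene. All 5 had a log2 fold change above 0, with a median of 0.46, where 6208 of the 12813 tested genes were above 0. Before adjustment 4 of the 5 had p under 0.05, all higher in the Jmjd1c libraries, and none passed after it. This subgroup is singled out here by these same values, so its counts are a description and no test. Of all 16 initiation genes, 6 (37.5%) had p under 0.05, all higher in the Jmjd1c libraries, as did 11.9% of all tested genes. Wipi2 encodes the PI3P-binding propeller that brings ATG16L1 to the membrane (ENSMUSG00000029578; mm10 chr5:142627698-142670588, plus strand). It had 175, 209 and 271 normalized read counts in the Jmjd1c libraries, against 154, 161, 166 and 144 in the control libraries. The lowest Jmjd1c library was Jmjd1c 1, close above control 3, and the highest was Jmjd1c 3. The means were 218 ± 49.0 in the Jmjd1c libraries (SD, n = 3) and 156 ± 9.14 in the control libraries (SD, n = 4), a 1.37-fold difference with a 95% interval of 1.11 to 1.70 (adjusted p = 0.110, limma). By the exact permutation test for this gene alone p was 0.0286, the smallest that 35 splits allow, with no adjustment for the other genes.

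Atg9a encodes the transmembrane protein of the vesicles that seed the autophagosome (ENSMUSG00000033124; chr1:75180860-75192196, minus strand). Its values were 127, 165 and 197 normalized read counts in the Jmjd1c libraries, against 118, 122, 122 and 104 in the control libraries. The order of the Jmjd1c libraries was that of Wipi2, with Jmjd1c 1 just above the control libraries. The difference was 1.38-fold with a 95% interval of 1.10 to 1.73 (adjusted p = 0.130, limma), a log2 fold change of 0.46 that was 0.28 with the GC and length correction. A transcript on the same strand, Gm29253, covers 31.8% of the exon bases of Atg9a. Atg2a, one of a pair of genes for the ATG2 lipid transfer proteins, had 164, 206 and 248 normalized read counts in the Jmjd1c libraries, against 137, 173, 145 and 149 in the control libraries. Jmjd1c 1 was below control 2, so the groups overlapped. The log2 fold change of Atg2a was 0.43 ± 0.14 (95% interval 0.12 to 0.75; adjusted p = 0.135, limma), and 0.21 after the correction. Its paralogue Atg2b was at 109 to 135 in the Jmjd1c libraries and at 110 to 122 in the control libraries, a log2 fold change of 0.05 (adjusted p = 0.864, limma). Stretches of Atg2b match other genes, among them 536 bases at 95.7% identity with D10Wsu102e, which averaged 553 normalized read counts. The counts of Atg2b are therefore uncertain. Wipi1, the closest relative of Wipi2, averaged 62.0 ± 16.5 normalized read counts in the Jmjd1c libraries and 41.4 ± 6.98 in the control libraries, a log2 fold change of 0.55 ± 0.22 with overlapping groups (adjusted p = 0.1996, limma).

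Of the 34 genes, 3 were called once Jmjd1c 1 was left out, all in this subgroup. Without it the log2 fold change was 0.61 for Wipi2 (adjusted p = 0.0304, limma), 0.63 for Atg9a (adjusted p = 0.0306) and 0.59 for Atg2a (adjusted p = 0.0366), in a fit that called 4.87% of all genes. Without Jmjd1c 3 the same genes had log2 fold changes of 0.29, 0.31 and 0.29, and none was called. Leaving out Jmjd1c 1 leaves 2 libraries in the Jmjd1c group, the pair with the lower correlations with the control libraries.

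**Figure D2:**
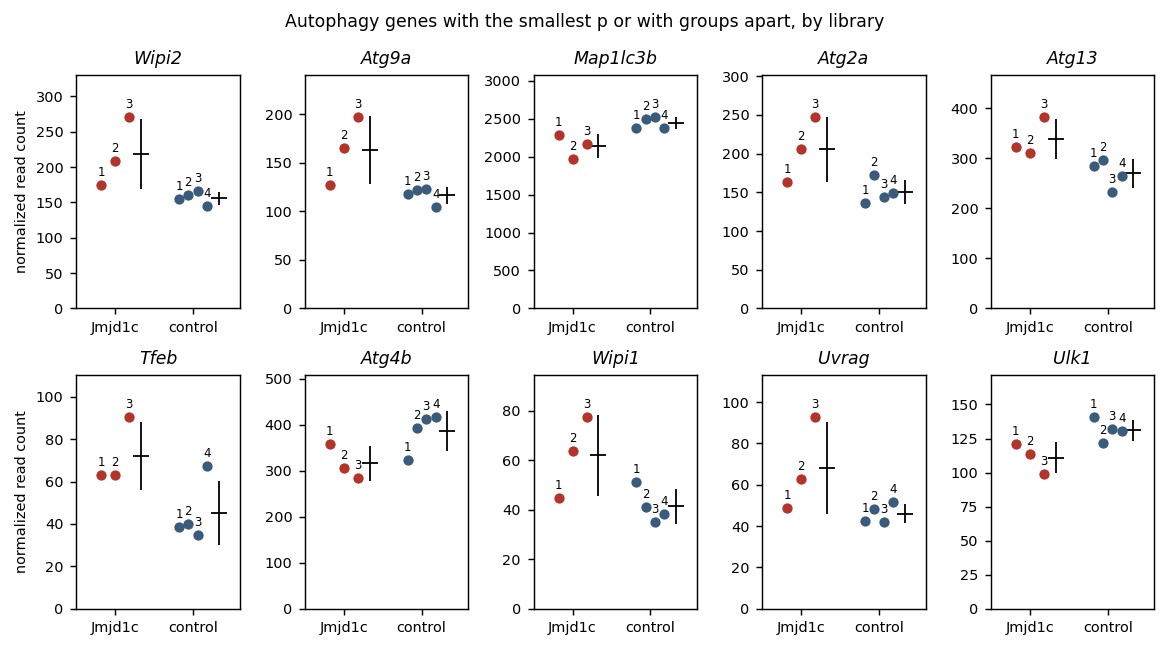
Normalized read counts by library (points, numbered by replicate) of the autophagy genes with the smallest p or with groups that do not overlap; crosses give the mean and SD of each group. In Wipi2, Atg9a and Atg2a Jmjd1c 1 lies near the control libraries and Jmjd1c 3 above all others, whereas Tfeb has a single high control library, control 4 at 67.3.

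The stretches of genome just before the RefSeq starts of Wipi2 and Atg9a are shown because these genes had the smallest p of the set. They are read 5′ to 3′ on the strand of the gene from RefSeq on GRCm38.p6, the assembly that mm10 names; RefSeq and GENCODE place some starts differently. Of the sequences printed here, that of Wipi2 and the E-boxes of Atg7 and Atg14 lie inside the gene as annotated by GENCODE, those of Atg9a, Map1lc3b and Tfeb reach into it, and the E-boxes of Atg3 and Atg5 lie before it. In Wipi2 the capitals mark a GC box, GGGCGG read on either strand, and in Atg9a they mark 3 CCAAT boxes, CCAAT read on either strand.

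Wipi2 (chr5:142629334-142629532, plus strand): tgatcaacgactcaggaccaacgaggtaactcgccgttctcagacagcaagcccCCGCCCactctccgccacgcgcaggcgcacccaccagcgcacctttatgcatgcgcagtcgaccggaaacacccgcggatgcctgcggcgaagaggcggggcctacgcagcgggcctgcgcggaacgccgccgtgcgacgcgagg

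Atg9a (chr1:75192011-75192260, minus strand): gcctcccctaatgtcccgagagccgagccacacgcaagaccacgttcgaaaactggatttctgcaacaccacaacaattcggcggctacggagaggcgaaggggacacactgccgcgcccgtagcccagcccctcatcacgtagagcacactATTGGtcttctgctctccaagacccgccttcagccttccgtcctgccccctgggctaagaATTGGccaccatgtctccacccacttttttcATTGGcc

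The stretch before Wipi2 has a GC content of 68.8% and no CCAAT box, and the one before Atg9a has 58.8% and no GC box. Of the 29 autophagy genes with a promoter in the RefSeq table (250 bases before to 50 after the start), 20 held a GC box (69.0%), against 38.2% of 27025 mouse genes, and 8 held a CCAAT box (27.6%), against 41.1%. The 27025 genes are all those with such a window, whether or not they were tested here. A match is only a run of letters in this window.

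The conjugation genes showed only small differences. Of the 15 tested, 11 had a log2 fold change below 0, with a median of -0.05, and all 15 intervals lay within 1.5-fold. The values of the enzymes that drive the cascade overlapped between the groups. Atg7, the E1-like enzyme that activates both ATG12 and the ATG8 proteins, was at 419 to 461 normalized read counts in the Jmjd1c libraries and at 420 to 506 in the control libraries (log2 fold change -0.05; 95% interval -0.24 to 0.13). Atg3, the E2-like enzyme for ATG8 proteins, was at 102 to 121 in the Jmjd1c libraries and at 98.4 to 115 in the control libraries (0.06; -0.21 to 0.33). Atg10, the E2-like enzyme for ATG12, was at 114 to 147 in the Jmjd1c libraries and at 118 to 158 in the control libraries (-0.15; -0.45 to 0.15).

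The genes of the E3-like complex, which attaches ATG8 proteins to lipid, also differed little. Atg5 had a log2 fold change of -0.11 (95% interval -0.32 to 0.10) and Atg12 one of -0.10 (-0.31 to 0.11). Atg12 was at 377 to 412 normalized read counts in the Jmjd1c libraries; in the control libraries 3 were at 451 to 461 and control 4 at 358. Atg16l1, which places the complex on the membrane, had the widest interval of the cascade, at 87.7, 98.9 and 143 in the Jmjd1c libraries and 96.7 to 129 in the control libraries, with a 95% interval of the log2 fold change from -0.39 to 0.38. Its relative Atg16l2 had a log2 fold change of 0.00 (-0.33 to 0.33).

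The ATG4 proteases, which trim the ATG8 proteins and release them from the membrane again, held 1 of the 2 genes with an unadjusted p under 0.05 and lower values. Atg4b, known from human cells as the main protease for LC3, averaged 316 ± 37.5 normalized read counts in the Jmjd1c libraries (SD, n = 3) and 387 ± 43.5 in the control libraries (SD, n = 4). The difference on the log2 scale was -0.29 ± 0.11 (95% interval -0.53 to -0.05; adjusted p = 0.186, limma), and the groups overlapped because control 1, at 323, lay within the Jmjd1c values. Atg4d had the opposite sign at 0.22 ± 0.14 (adjusted p = 0.402, limma), from 141, 165 and 216 in the Jmjd1c libraries against 138 to 156 in the control libraries. Kri1 on the other strand covers 19.3% of the exon bases of Atg4d. Atg4a and Atg4c had log2 fold changes of 0.02 and -0.06, and Atg4a shares 2115 bases at 99.3% identity with Atg4a-ps, which averaged 5.63 normalized read counts.

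The ATG8 proteins, which tag the autophagosome and bind its cargo, included the genes with the highest levels of the set. Gabarap had the highest level per kilobase of exon of all 35 genes, 572 ± 48.7 in the Jmjd1c libraries and 614 ± 52.3 in the control libraries. By library it had 1095, 952 and 1118 normalized read counts in the Jmjd1c libraries, against 1084, 1080, 1090 and 1278 in the control libraries, so the groups overlapped and control 4 was the highest. Its log2 fold change was -0.10 ± 0.08 (adjusted p = 0.516, limma). Second per kilobase was Map1lc3b, which encodes LC3B, the usual protein marker of autophagosomes, at 284 in the Jmjd1c libraries and 325 in the control libraries. Gabarapl1 followed at 274 ± 43.7 in the Jmjd1c libraries and 243 ± 19.0 in the control libraries. Gabarapl2 was lower, at 75.2 ± 1.99 in the Jmjd1c libraries and 77.4 ± 12.9 in the control libraries. The length merges all annotated exons, 1844 bases in Gabarap and 7517 in Map1lc3b, so ranks and shares per kilobase depend on it. In normalized read counts the order was the reverse. Map1lc3b averaged 2136 in the Jmjd1c and 2444 in the control libraries, and Gabarap 1055 in the Jmjd1c and 1133 in the control libraries.

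**Figure D3:**
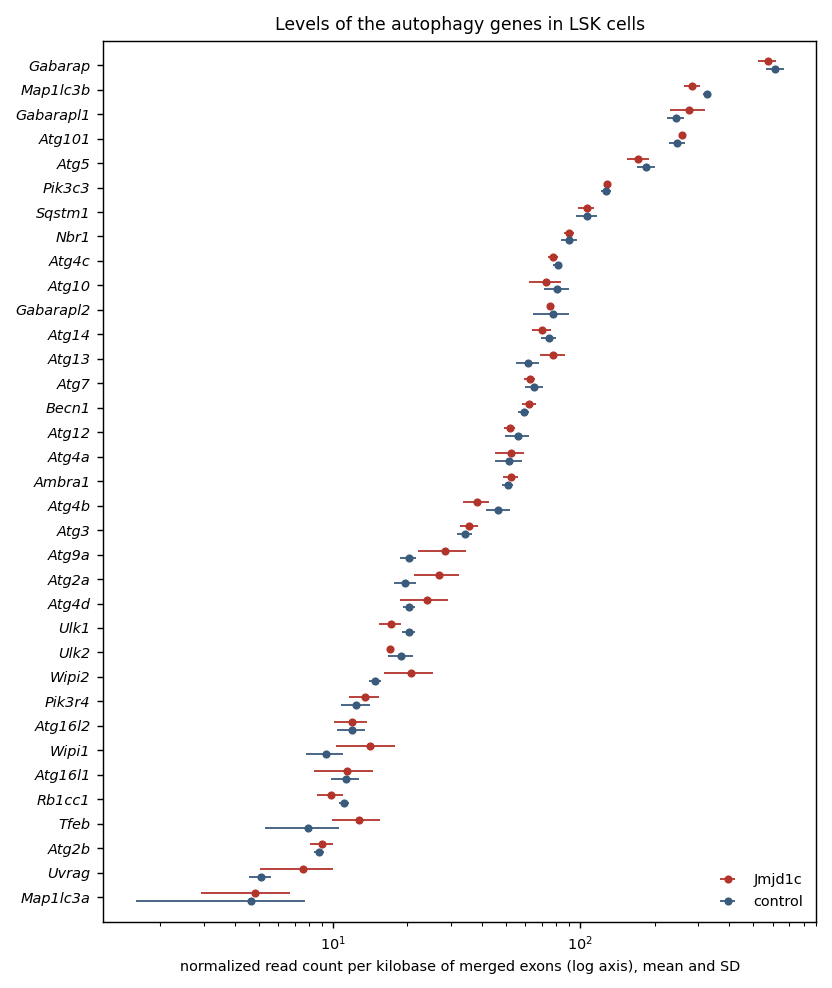
Level of each autophagy gene as normalized read count per kilobase of merged exons (log axis), mean and SD of the 3 Jmjd1c and 4 control libraries. Gabarap leads at 572 in the Jmjd1c and 614 in the control libraries, Map1lc3a comes last at 4.82 in the Jmjd1c and 4.64 in the control libraries, and Tfeb, at 12.7 in the Jmjd1c and 7.96 in the control libraries, has the largest ratio of the means.

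Map1lc3b (ENSMUSG00000031812; chr8:121590361-121598760, plus strand) had 2279, 1966 and 2163 normalized read counts in the Jmjd1c libraries, against 2380, 2496, 2525 and 2376 in the control libraries. All 3 Jmjd1c libraries were below all 4 control libraries. The means were 2136 ± 158 in the Jmjd1c libraries (SD, n = 3) and 2444 ± 77.3 in the control libraries (SD, n = 4), a fold of 0.87 with a 95% interval of 0.79 to 0.96 (adjusted p = 0.134, limma). The exact permutation p for this gene alone was 0.0286, the smallest that 35 splits allow, with no adjustment for the other genes. The processed pseudogene Gm6055 matches 378 bases of Map1lc3b at 99.7% identity and averaged 17.0 normalized read counts. Gabarapl1 had 471, 541 and 646 normalized read counts in the Jmjd1c libraries and 462 to 546 in the control libraries, a log2 fold change of 0.17 ± 0.11 (adjusted p = 0.404, limma), and 28.3% of its exon bases overlap 1700101I11Rik on the other strand. Of the ATG8 reads per kilobase, Map1lc3b held 25.0%, 23.2% and 22.2% in the Jmjd1c libraries, against 25.8%, 25.8%, 27.4% and 24.1% in the control libraries. Gabarapl1 held 19.3%, 23.9% and 24.8% in the Jmjd1c libraries, against 19.4%, 21.0%, 19.0% and 17.5% in the control libraries. The ratio of Map1lc3b to Gabarapl1 reads was 4.84, 3.63 and 3.35 in the Jmjd1c libraries and 4.97, 4.58, 5.37 and 5.15 in the control libraries. Jmjd1c 1 lay inside the control range of this ratio, and Jmjd1c 2 and Jmjd1c 3 below it. Map1lc3b had the lowest and Gabarapl1 the only positive log2 fold change of the 4 tested ATG8 genes. The lower mean ratio in the Jmjd1c libraries follows from that choice of pair, and other pairs are not given.

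The stretch before the RefSeq start of Map1lc3b is shown because it was the lower gene with the smallest p; the capitals mark its GC box, read on the minus strand.

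Map1lc3b (chr8:121590188-121590437, plus strand): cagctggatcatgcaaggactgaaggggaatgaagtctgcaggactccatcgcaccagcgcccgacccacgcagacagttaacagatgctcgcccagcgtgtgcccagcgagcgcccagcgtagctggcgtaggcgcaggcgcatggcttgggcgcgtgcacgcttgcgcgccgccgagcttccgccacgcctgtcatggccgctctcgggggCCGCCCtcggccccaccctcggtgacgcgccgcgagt

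Both cargo receptors averaged the same level in the groups. Sqstm1 encodes p62, which carries ubiquitin-tagged cargo to LC3 and is itself degraded by autophagy. It had 358, 329 and 380 normalized read counts in the Jmjd1c libraries, against 339, 364, 321 and 401 in the control libraries, fully overlapping ranges. The log2 fold change of Sqstm1 was 0.00 ± 0.09 with a 95% interval of -0.21 to 0.21, and the level per kilobase was 106 in both groups. Mrnip on the other strand covers 17.3% of its exon bases. Nbr1, a second ubiquitin-binding receptor, was at 589 to 641 in the Jmjd1c libraries and at 565 to 677 in the control libraries, a log2 fold change of 0.00 with a 95% interval of -0.17 to 0.17.

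Tfeb, the factor of the MiT family that drives lysosomal and autophagy genes, had the largest fold change of the set (ENSMUSG00000023990; chr17:47737030-47792419, plus strand). Its values, given for each library because 1 library decides the call, were 62.9, 62.9 and 90.4 normalized read counts in the Jmjd1c libraries, against 38.4, 39.8, 34.97 and 67.3 in the control libraries. Controls 1 to 3 were below all Jmjd1c libraries, and control 4 was above 2 of the 3. The means were 72.1 ± 15.9 in the Jmjd1c libraries (SD, n = 3) and 45.1 ± 14.9 in the control libraries (SD, n = 4), a 1.61-fold difference with a 95% interval of 1.12 to 2.32 (adjusted p = 0.152, limma; exact permutation p = 0.114). Without control 4 the log2 fold change was 0.90 ± 0.20 and Tfeb passed, with an adjusted p just under the threshold (adjusted p = 0.04998, limma), in a fit that called 1.58% of all genes. Control 4 is also the library with the summed macrophage markers of 11789, against 3140 to 4519 in the other control libraries; the part of macrophage RNA in its Tfeb value was not tested. With all libraries the log2 fold change of Tfeb was 0.69 ± 0.24, and 0.40 with the GC and length correction. The stretch before its RefSeq start holds 2 GC boxes, in capitals, read on the plus strand.

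Tfeb (chr17:47736787-47737036, plus strand): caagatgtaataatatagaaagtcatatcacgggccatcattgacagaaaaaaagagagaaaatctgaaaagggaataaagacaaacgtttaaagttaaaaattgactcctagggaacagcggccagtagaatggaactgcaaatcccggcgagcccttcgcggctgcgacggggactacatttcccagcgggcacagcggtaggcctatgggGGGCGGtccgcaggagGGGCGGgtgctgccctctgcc

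TFEB binds an E-box, CACGTG, within a longer CLEAR element, taken here as the E-box with GT before it and AC after it. In the RefSeq promoter windows the E-box was present in 4 of the 29 autophagy genes (13.8%) and the CLEAR element in 0. Over the 27025 genes with a window, tested here or not, the shares were 8.09% for the E-box and 0.370% for the CLEAR element. The 4 autophagy genes with an E-box were Atg14, Atg3, Atg5 and Atg7, and Atg3 held 2 E-boxes. Each is shown with 10 bases on either side and the E-box in capitals, since these are the windows of the set that hold the letters of a TFEB site; both strands read the same.

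Atg14 (chr14:47568420-47568445, minus strand): aacaaaatccCACGTGactggccctg

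Atg3, first (chr16:45158725-45158750, plus strand): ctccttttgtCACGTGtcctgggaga

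Atg3, second (chr16:45158748-45158773, plus strand): agagtcgagtCACGTGaggccttagg

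Atg5 (chr10:44268315-44268340, plus strand): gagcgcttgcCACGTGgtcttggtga

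Atg7 (chr6:114670954-114670979, plus strand): tattggtggtCACGTGtgcagtaagt

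None of these genes passed the test, with log2 fold changes of -0.09 for Atg14, 0.06 for Atg3, -0.11 for Atg5 and -0.05 for Atg7.

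The highest of the 7 libraries was Jmjd1c 3 in 15 of the 34 tested genes (44.1%), against 22.1% of all tested genes, and Jmjd1c 1 in 0, against 6.25% of all tested genes. The median difference of the 34 genes from the control mean was -0.06 in Jmjd1c 1, 0.03 in Jmjd1c 2 and 0.09 in Jmjd1c 3, on the log2 scale. Without Jmjd1c 3 the log2 fold change of Uvrag was 0.27, against 0.51 with all libraries, and that of Wipi1 0.37, against 0.55.

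**Figure D4:**
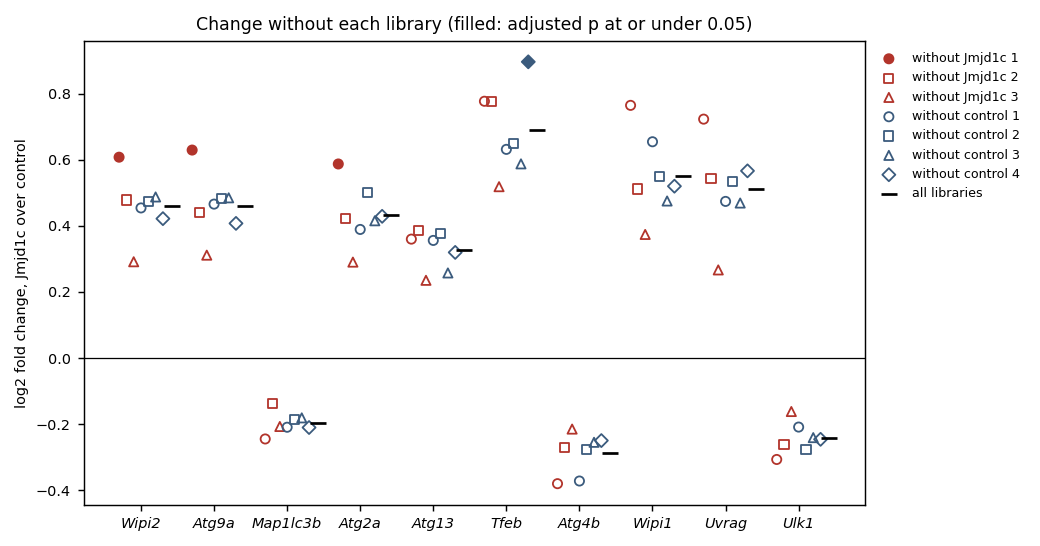
Log2 fold change, Jmjd1c over control, of 10 autophagy genes after leaving out each library in turn; filled symbols have an adjusted p at or under 0.05, and the bar gives the value with all libraries. The filled symbols are Wipi2 at 0.61, Atg9a at 0.63 and Atg2a at 0.59 without Jmjd1c 1, and Tfeb at 0.90 without control 4.

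GC content varied with the differences. Over the 34 genes the log2 fold change correlated with the GC content of the transcripts at r = 0.504 (rho = 0.455), and over 12677 tested genes with an annotation at r = 0.270 (rho = 0.300). The points are genes that share the same 7 libraries, so this is a description. Once corrected for GC content and length, the median of the WIPI, ATG2 and ATG9 genes was 0.28, against 0.46 before it, and that of the 34 genes 0.02. The part of GC content in the single differences was not tested further.

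**Figure D5:**
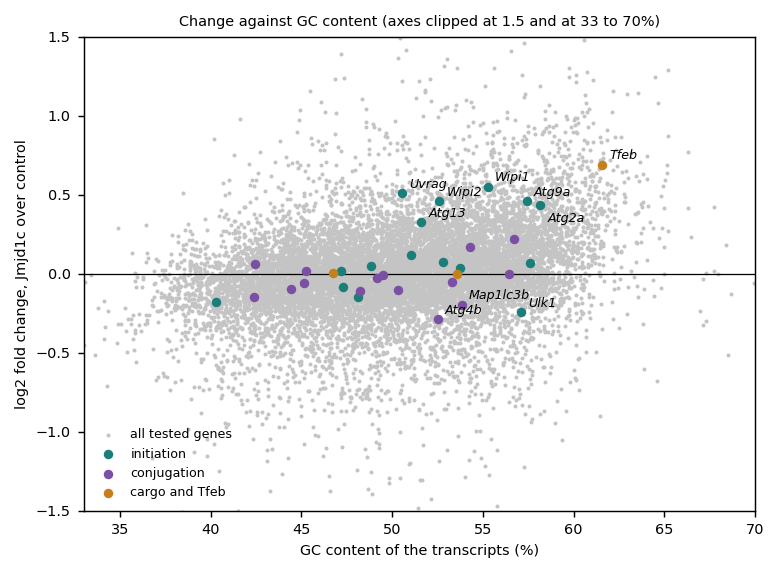
Log2 fold change, Jmjd1c over control, against the GC content of the transcripts (%) for the autophagy genes by role (coloured) and all tested genes (grey), with axes clipped. The highest coloured point is Tfeb, with a GC content of 61.6% and a log2 fold change of 0.69, and the lowest is Atg4b, at -0.29.

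In the rest of the pathway, 1 gene was called in 6 lists, where 1.8% of all tested genes were called. The groups did not overlap in 2 of 12 other genes of autophagosome formation, 3 of 15 receptors and 1 of 13 fusion genes. They did not overlap in 0 of 27 mTORC1 and AMPK genes, 2 of 6 MiT and FoxO factors and 6 of 40 lysosomal genes. Over all tested genes the share was 16.8%. Among the genes named below, these include Tecpr1, Phb2, Bnip3l, Ykt6, Foxo3, Gaa and Atp6v0e. Of 12 other genes of autophagosome formation 0 were called, and the smallest p-values belonged to Tecpr1 (log2 fold change 0.29; adjusted p = 0.1996, limma) and Wdr45, a relative of the WIPI genes (-0.21; adjusted p = 0.232). Of 15 tested receptors for mitochondria and other cargo, out of 17 listed, 0 were called. Among them Phb2, an inner mitochondrial membrane protein that binds LC3, had a log2 fold change of 0.36 (adjusted p = 0.0941, limma), with 488, 493 and 549 normalized read counts in the Jmjd1c libraries against 338 to 459 in the control libraries. Bnip3l, the receptor for mitochondria in maturing red cells, had one of -0.21 (adjusted p = 0.119, limma), with 721 to 811 in the Jmjd1c libraries and 861 to 914 in the control libraries. Neither gene's groups overlapped. Of 13 tested genes for fusion with lysosomes, out of 14 listed, 0 were called, and Epg5 (0.40; adjusted p = 0.303, limma) and Ykt6 (0.18; adjusted p = 0.311) had the smallest p.

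The mTORC1 and AMPK genes, which govern the ULK complex, were not called either, 0 of 27 tested out of 28. Prkaa1, the catalytic AMPK subunit, had a log2 fold change of -0.28 (adjusted p = 0.148, limma), and Akt1s1, the mTORC1 inhibitor PRAS40, one of 0.69 (adjusted p = 0.167). Akt1s1 was at 56.3, 74.2 and 129 normalized read counts in the Jmjd1c libraries and at 43.1 to 59.1 in the control libraries, and its log2 fold change was 0.36 without Jmjd1c 3. Among the 6 other MiT and FoxO factors 1 passed. Foxo3, a factor that drives autophagy genes in blood stem cells of mice, had 511, 527 and 547 normalized read counts in the Jmjd1c libraries, against 434, 391, 439 and 407 in the control libraries, and rose by 0.34 ± 0.07 on the log2 scale (adjusted p = 0.0470, limma). The groups did not overlap. The call of Foxo3 was lost with the GC and length correction, where its log2 fold change was 0.07. It was also lost with quantile normalization (adjusted p = 0.0588, limma) and without the intensity trend (adjusted p = 0.150, limma). Leaving out any 1 library other than Jmjd1c 1 lost it as well, with adjusted p-values up to 0.211 and log2 fold changes of 0.31 to 0.36. Without control 4, which leaves replicates 1 to 3 of each group, the adjusted p was 0.0687 (limma). The median log2 fold change of the 40 lysosomal genes was -0.11, against -0.01 over all tested genes. It was below 0 in 29 of the 40 and in 6605 of the 12813 tested genes, and 0 of the 40 were called. Before adjustment 13 of the 40 (32.5%) had p under 0.05, against 19.7% of all tested genes, 8 of them lower and 5 higher in the Jmjd1c libraries. The summed neutrophil markers (6861 to 9894 in the Jmjd1c and 9889 to 13312 in the control libraries) and basophil and mast cell markers (2204 to 4628 in the Jmjd1c and 5686 to 8811 in the control libraries) were also lower in the Jmjd1c libraries, and the macrophage markers reached 11789 in control 4; their part in the lysosomal values was not tested. Gaa, the enzyme that breaks down glycogen in lysosomes, had the smallest p among them and a log2 fold change of 0.33 (adjusted p = 0.0871, limma), and was called without Jmjd1c 1 (0.44; adjusted p = 0.0206). Atp6v0e, a subunit of the lysosomal proton pump, had one of -0.21 (adjusted p = 0.0937, limma), with 1060 to 1163 normalized read counts in the Jmjd1c libraries and 1244 to 1319 in the control libraries.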

How the data were processed

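RNA of sorted LSK cells was extracted with Trizol, amplified with a SMARTer ultra-low-input kit and sequenced as Illumina paired ends, per the labels' protocols. Per the submitters' processing notes, the tools were Trim Galore (0.2.8), STAR, HTSeq (0.6.1p1) and DESeq (1.18.0), with mm10 as the build. Annotation release, strandedness of counting and filters: not given in the sources used here. The deposited table holds a normalized signal per gene; each column is whole multiples of 1 step, as counts over a size factor are, and 100% of the values above 0 came out as whole reads within 0.01.

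The test was limma-trend (limma 3.58.1, R 4.3.3) on log2(value + 1), 3 Jmjd1c against 4 control libraries without covariates, for the 12813 genes that reached 10 in 3 or more libraries, with Benjamini-Hochberg adjustment over them and a threshold of 0.05. Fold changes are on that scale, which shrinks those of low genes. Errors beside log2 fold changes are SEs, and intervals are 95% limma intervals. edgeR 4.0.16 and DESeq2 1.42.0 ran on the recovered reads. The limma fit was also run on counts simulated from the spread of these 7 libraries. Within a group the simulated libraries differed only in depth and random draw, and the outcome is not given here. A reference table gave 37607 IDs a symbol; positions and exon lengths came from GENCODE M21 on GRCm38, and promoters from RefSeq on GRCm38.p6. Copies were searched with BLAST 2.17.0, keeping those of at least 95% identity over 300 bases.

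By a set rule, values per library are given for members that passed, whose groups did not overlap, with the 5 smallest p or with the most reads per kilobase of a role. Outside this rule they are given for Tfeb and Map1lc3a, and in the Jmjd1c libraries for Atg4d, Atg16l1 and Gabarapl1. From each other list the genes named are those that passed, or else the 2 with the smallest p. Members and lists were chosen with earlier results of these data known. Same-numbered libraries correlated at -0.15, -0.0021 and 0.017 in their deviations from the group means. These values gave no sign of pairing by number, but so few pairs cannot exclude it.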

Additional observations from a re-analysis of the deposited data

Results flagged for a closer look

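In 3 of the 35 autophagy genes 1 control library lay far from the other control libraries, by a rule that chance meets in about 1 in 20 groups, and in each it was control 4. The Jmjd1c group, with 3 libraries, is too small for the rule. Tfeb was at 67.3 normalized read counts in control 4, against 34.97 to 39.8 in controls 1 to 3. Gabarap was at 1278 in control 4, against 1080 to 1090 in controls 1 to 3. Atg12 was at 358 in control 4, against 451 to 461 in controls 1 to 3. The summed macrophage markers were 11789 in control 4 and 3140 to 4519 in controls 1 to 3, and the part of macrophage RNA in these values was not tested.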

How the results depend on the processing

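The number of genes called was 231, and moved to 0 in limma without the intensity trend (2213 genes had an unadjusted p under 0.05), 16 with a replicate block, 62 with the GC and length correction, 42 with both together, 590 by DESeq2 and 716 at an adjusted p threshold of 0.1; leaving out 1 library gave 3 to 624. The number of autophagy genes called was 0, and was 0 to 3 on leaving out 1 library. Replicates 1 to 3 of each group alone are the libraries left without control 4, so both settings are the same fit. That fit called 1 autophagy gene, Tfeb. The groups did not overlap in 5 autophagy genes, and in 9 in that fit. On leaving out any 1 library this held in 5 to 12 genes, where fewer libraries make it likelier. The median log2 fold change of the autophagy genes stayed between -0.02 and 0.08. Jmjd1c kept its log2 fold change of -0.89 but not its call in limma without the intensity trend (adjusted p = 0.117). The replicate block called 0 autophagy genes and ended the call of Foxo3 (adjusted p = 0.169 in limma, and 0.805 with the correction as well). Whether the numbers pair the libraries is not known.

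Over 990 comparisons of 45 genes with 22 alternatives, 915 kept their direction and call, 53 reversed, 10 gained a call and 12 lost one. The fit of replicates 1 to 3 alone, which is also that without control 4, enters these tallies under both names. The reversed genes had log2 fold changes of -0.15 to 0.12 with all libraries. The GC and length correction put Atg101 at -0.011, Ambra1 at -0.035, Atg4c at 0.012, Atg10 at 0.040, Gabarapl2 at 0.032 and Sqstm1 at -0.034. The replicate block, and likewise replicates 1 to 3 alone, put Pik3c3 at -0.015, Atg7 at 0.0014, Atg16l1 at 0.080 and Nbr1 at -0.042. The block and the correction together put Atg101 at -0.029, Pik3r4 at -0.021, Ambra1 at -0.068, Atg16l1 at 0.050, Gabarap at 0.028 and Nbr1 at -0.035. Quantile normalization put Atg4a at -0.0092, Sqstm1 at -0.016 and Nbr1 at -0.0010. Sqstm1 was also at -0.0017 with TMM scaling, -0.015 with array weights, -0.0066 by edgeR and -0.0092 by DESeq2, which put Nbr1 at -9.5e-05. On leaving out 1 library the log2 fold change ranged from -0.015 to 0.043 in Pik3c3, -0.013 to 0.087 in Ambra1, -0.030 to 0.12 in Atg2b, -0.067 to 0.13 in Atg4a and -0.095 to 0.0014 in Atg7. It ranged from -0.21 to 0.14 in Atg16l1, -0.095 to 0.13 in Atg16l2, -0.10 to 0.066 in Gabarapl2, -0.049 to 0.059 in Sqstm1 and -0.042 to 0.045 in Nbr1. The cause of these shifts was not tested. With 3 and 4 libraries of 4303712 to 6436519 reads, the median half-width of the 95% interval of the log2 fold change was 0.25 over the 34 genes.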
